A study of Mus musculus with 12 samples.

Results

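The genes described here are 37 genes of glucose use that were taken as a fixed list by symbol: 3 glucose transporters, 3 hexokinases, 7 enzymes of upper glycolysis, 3 enzymes that set fructose-2,6-bisphosphate, 6 enzymes of lower glycolysis, 6 genes of lactate and pyruvate handling, 6 of the pentose phosphate pathway and 3 of glycogen. All 37 were found among the 55604 genes of the deposited count tables, and all 37 passed the filter on low counts that left 16406 genes for testing. The data are RNA sequencing of C57BL/6 mouse macrophages grown from bone marrow and used on day 7 of culture in M-CSF (20 ng/ml), the colony-stimulating factor of macrophages. One group was loaded with dead B16-F10 cells (a mouse melanoma line; the dead cells are called corpses) that overexpressed stanniocalcin 1 (STC1, a secreted glycoprotein), a second with control B16-F10 corpses, and the last was cultured without corpses, with 4 libraries in each group, which the series' design text calls independent experiments. Corpses were given at a ratio stated as 1 to 5 for 20 hours, after which those not bound were washed off. All groups were thus bone marrow-derived macrophages of 1 strain under M-CSF. How the B16-F10 cells were made to overexpress STC1, whether they were 1 clone and how they were killed are not given in the sources used here.

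Glycolysis breaks glucose down to pyruvate in the cytosol, and lactate dehydrogenase turns pyruvate into lactate, which leaves the cell through monocarboxylate transporters. The pentose phosphate pathway branches off at glucose 6-phosphate and yields NADPH and ribose phosphate, and glycogen stores glucose. Macrophages are known to raise glycolysis on inflammatory activation. Many genes of the pathway are known targets of the hypoxia-inducible factors, which bind DNA at ACGTG or GCGTG.

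Libraries held 28488441 to 39981074 counts assigned to genes. The macrophage markers Adgre1, Csf1r and Cd68 were high in every library. The 10 macrophage markers summed to 14115 to 15255 CPM (counts scaled to library size with TMM factors) with STC1 corpses. Their sum was 14251 to 15926 CPM with control corpses and 16632 to 17504 CPM in macrophages alone. Of the 10, 3 were higher and 6 lower than in macrophages alone with each kind of corpse (calls as defined below). Of all tested genes 21.4% were higher and 22.4% lower with STC1 corpses, and 19.7% and 20.5% with control corpses. The 17 melanocyte markers summed to 126.0 to 129 CPM with STC1 corpses, 131 to 137 CPM with control corpses and 169 to 177 CPM in macrophages alone, most of it Mitf, which averaged 109 CPM, 109.5 CPM and 165 CPM in the same order. The 14 of them that were below 1 CPM in macrophages alone, a choice made after their values were seen, summed to 9.27 to 10.96 CPM with STC1 corpses, 14.2 to 18.7 CPM with control corpses and 2.35 to 2.97 CPM in macrophages alone. Of 13 tested melanocyte markers, 6 were lower (among them Tyrp1 and Dct) and 1, Ednrb, was higher with STC1 corpses than with control corpses. Of all tested genes 2.12% were lower and 3.33% higher in that comparison. Against macrophages alone, 10 of the 13 were higher and 1 lower with each kind of corpse, beside the shares of all tested genes given above. Neutrophil markers summed to 84.7 to 91.3 CPM with STC1 corpses, 91.9 to 97.2 CPM with control corpses and 178 to 186 CPM in macrophages alone. B cell markers summed to at most 15.8 CPM, fibroblast markers to at most 24.4 CPM and T and NK cell markers to at most 0.138 CPM in any library. Reads that did not align made up 14.4% to 17.8% of all reads with STC1 corpses, 10.8% to 11.5% with control corpses and 11.4% to 14.01% in macrophages alone. Stc1 itself had 17 counts over the 4 libraries with STC1 corpses, against 5 counts over those with control corpses and 5 over macrophages alone. The part of corpse RNA and of the unaligned reads in the results below was not tested.

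Libraries of a group stood apart in pairs. Over tested genes with at least 20 counts in a pair of libraries, chi-square divided by its degrees of freedom (near 1 for sampling noise alone) was 4.27 between replicates 1 and 2 and 2.815 between replicates 3 and 4 with STC1 corpses, where pairs across gave 11.2 to 17.2. In macrophages alone these values were 3.115, 2.89 and 6.04 to 13.6. With control corpses replicates 3 and 4 were alike (2.73), while replicates 1 and 2 (7.13) were within the 5.48 to 9.27 of the pairs across. The labels give no reason for the pairs, the tests treat the 4 libraries as independent, and the part of the pairs in the results was not tested beyond the fits on replicates 1 and 2 alone or 3 and 4 alone. Among the 37 genes, replicate 2 had the lowest value of its group for 20 genes with STC1 corpses and for 20 genes with control corpses. In macrophages alone replicate 1 was the lowest for 15 genes. In bulk RNA, fewer cells that express a gene and less RNA per cell cannot be told apart.

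The promoters of 5 of the genes are shown because they span what the window holds at genes that differed between the corpse groups: the lactate exporter gene Slc16a3, Ldha, Slc2a1 and Pgk1, each with matches to ACGTG, and Pfkl with none to ACGTG but 1 to GCGTG. The sequences are those of RefSeq on GRCm38.p6, each 300 bases long, with 250 bases before and 50 bases after the annotated start, and capitals mark ACGTG on the printed strand or CACGT where the match is on the other strand; GCGTG is not marked.
Slc16a3: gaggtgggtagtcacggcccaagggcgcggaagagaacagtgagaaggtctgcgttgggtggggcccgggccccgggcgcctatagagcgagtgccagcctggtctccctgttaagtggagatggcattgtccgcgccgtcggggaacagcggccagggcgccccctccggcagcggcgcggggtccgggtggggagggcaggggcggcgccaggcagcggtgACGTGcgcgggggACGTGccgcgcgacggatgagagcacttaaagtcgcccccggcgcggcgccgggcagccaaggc
Ldha: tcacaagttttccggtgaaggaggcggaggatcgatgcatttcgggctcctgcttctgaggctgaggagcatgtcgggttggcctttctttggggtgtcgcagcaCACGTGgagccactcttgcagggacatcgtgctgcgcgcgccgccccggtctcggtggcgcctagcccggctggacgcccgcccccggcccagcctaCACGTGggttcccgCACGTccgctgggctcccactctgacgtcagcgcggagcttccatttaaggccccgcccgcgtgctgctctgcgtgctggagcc
Slc2a1: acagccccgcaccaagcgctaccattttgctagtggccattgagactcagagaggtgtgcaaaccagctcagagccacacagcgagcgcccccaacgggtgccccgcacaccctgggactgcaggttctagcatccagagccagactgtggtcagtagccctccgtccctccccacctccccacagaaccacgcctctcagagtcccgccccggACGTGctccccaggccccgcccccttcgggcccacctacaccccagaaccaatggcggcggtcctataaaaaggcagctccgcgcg
Pgk1: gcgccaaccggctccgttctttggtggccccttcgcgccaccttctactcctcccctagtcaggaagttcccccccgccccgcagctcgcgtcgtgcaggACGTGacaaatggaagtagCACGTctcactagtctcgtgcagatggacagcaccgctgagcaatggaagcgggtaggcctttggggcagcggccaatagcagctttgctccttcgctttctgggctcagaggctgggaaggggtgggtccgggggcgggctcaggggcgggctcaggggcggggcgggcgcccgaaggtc
Pfkl: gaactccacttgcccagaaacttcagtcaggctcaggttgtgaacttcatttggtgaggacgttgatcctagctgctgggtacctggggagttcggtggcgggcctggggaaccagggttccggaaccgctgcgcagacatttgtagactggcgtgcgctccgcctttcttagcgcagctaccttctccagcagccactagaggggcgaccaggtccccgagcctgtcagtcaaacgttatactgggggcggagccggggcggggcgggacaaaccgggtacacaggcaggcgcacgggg
They lie at chr11:120948817-120949116, plus strand (Slc16a3), chr7:46845554-46845853, plus strand (the first of the start sites listed for Ldha), chr4:119108495-119108794, plus strand (Slc2a1), chrX:106186850-106187149, plus strand (Pgk1) and chr10:78009758-78010057, minus strand (Pfkl).

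The Slc16a3 window held 2 matches to ACGTG, close together ahead of the start. The Ldha window shown held 5 matches when both strands were counted, because CACGTG reads the same on both strands and counts once on each. Slc2a1 had 1 match, Pgk1 had 2 and Pfkl had 0. The other core, GCGTG, counted on both strands after the ACGTG counts were seen, had 0 matches in the windows of Slc16a3 and Pgk1, 2 in that of Ldha and 1 each in those of Slc2a1 and Pfkl. Of the 52 windows of the 36 listed genes with an entry, 42.3% (22) held ACGTG on either strand, against 19.6% (6447 of 32851) of all RefSeq promoter windows of that length. Counted by gene, 18 of 36 held a match in at least 1 window, against 21.8% of all 27025 genes with an entry, and the windows of the listed genes had a median GC content of 60.7%, against 52.7% over all windows. Of the 23 genes called higher with STC1 corpses than with control corpses (below), 13 held a match to ACGTG, and of the 13 genes with an entry that were not called, 5 did. For GCGTG the order was the other way: 13 of the 23 called genes and 12 of the 13 not called held it, in all 59.6% (31) of the 52 windows, against 32.4% of all windows. Either core was present for 19 of the 23 called genes and 12 of the 13 not called, and in 78.8% (41) of the 52 windows, against 43.8% of all windows. The windows of all genes include genes that were not tested here and were not matched for level or GC content, and windows of 1 gene can overlap. A match is only a match of letters. Slc2a3 had no entry.

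With STC1 corpses as against control corpses, 23 of the 37 genes were higher and 0 were lower, where a call is an edgeR quasi-likelihood test with a Benjamini-Hochberg adjusted p under 0.05 over all genes tested. Of all tested genes 3.33% were called higher and 2.12% lower in that comparison (546 and 347 genes; 768 and 265 with DESeq2, which called the same numbers of 23 and 0 among the 37). The changes were small: called genes were 1.06-fold (G6pdx) to 1.40-fold (Slc16a3) higher, with a median of 1.17-fold. The median log2 fold change was 0.16 over the 37 genes and -0.01 over all tested genes. In 24 of the 37 genes the ranges of the 4 libraries per group did not overlap, all 24 with the higher range in macrophages given STC1 corpses; this was so for 5.86% of all tested genes. When the test asked for a change of more than 1.2-fold, 0 of the 37 genes were called, and over all genes 2 were called higher and 2 lower. The summed level of the 37 genes was 11795 ± 225 CPM with STC1 corpses, 10114 ± 201 CPM with control corpses and 9423 ± 106 CPM in macrophages alone (SD, n = 4 each).

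Calls were more frequent among abundant genes. Of the 25 genes with a mean of at least 50 CPM, 21 were higher, against 11.2% of all 3506 genes at that level. Of the 12 genes below 50 CPM, Gys1 and Gbe1 were the 2 called higher.

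**Figure D1:**
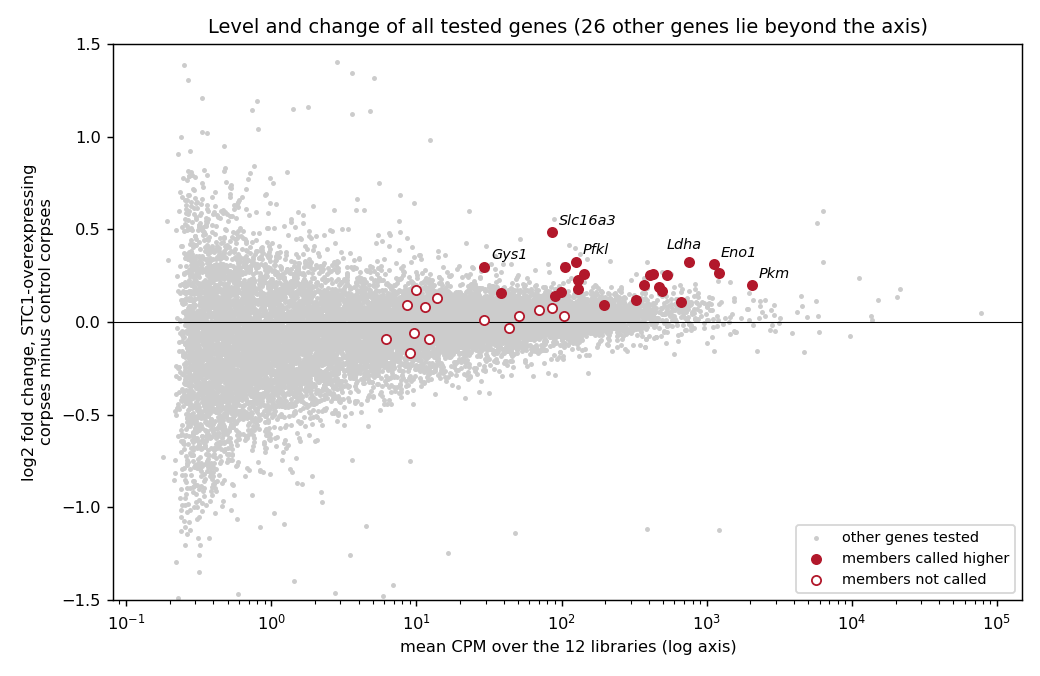
Mean level over the 12 libraries (CPM, log axis) against the log2 fold change of STC1 corpses over control corpses for each tested gene. Grey points are genes outside the list, filled red points the 23 listed genes called higher and open points the other 14. The called genes lie above 0 and mostly at the right of the plot, where the grey cloud is narrow; 26 grey genes lie beyond the axis.

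With STC1 corpses as against macrophages alone, 25 of the 37 genes were higher and 7 were lower; of all tested genes 21.4% were called higher and 22.4% lower. The higher genes were so by 1.07-fold (Pdha1) to 1.58-fold (Hk2). The 7 lower genes were Pfkp, Pfkfb4, Aldoc, Eno2, Pdk1, Tkt and Pygl, at 0.673-fold (Eno2) to 0.942-fold (Tkt). The median log2 fold change was 0.24 over the 37 genes and -0.03 over all genes. Among the 25 genes of at least 50 CPM, 76% (19 genes) were called higher, against 41.7% of all genes at that level.

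With control corpses as against macrophages alone, 15 genes were higher and 9 were lower; of all tested genes 19.7% were called higher and 20.5% lower. At 50 CPM and above, 10 of the 25 genes were higher, against 34.9% of all genes at that level, so that the share was near the background. The 9 lower genes were Pfkm, Pfkp, Pfkfb4, Aldoc, Eno2, Pdk1, G6pdx, Tkt and Pygl. The median log2 fold change was 0.08 over the 37 genes and 0.00 over all genes. Both comparisons with macrophages alone use the same 4 libraries as their baseline, and each is given with its own values below.

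**Figure D2:**
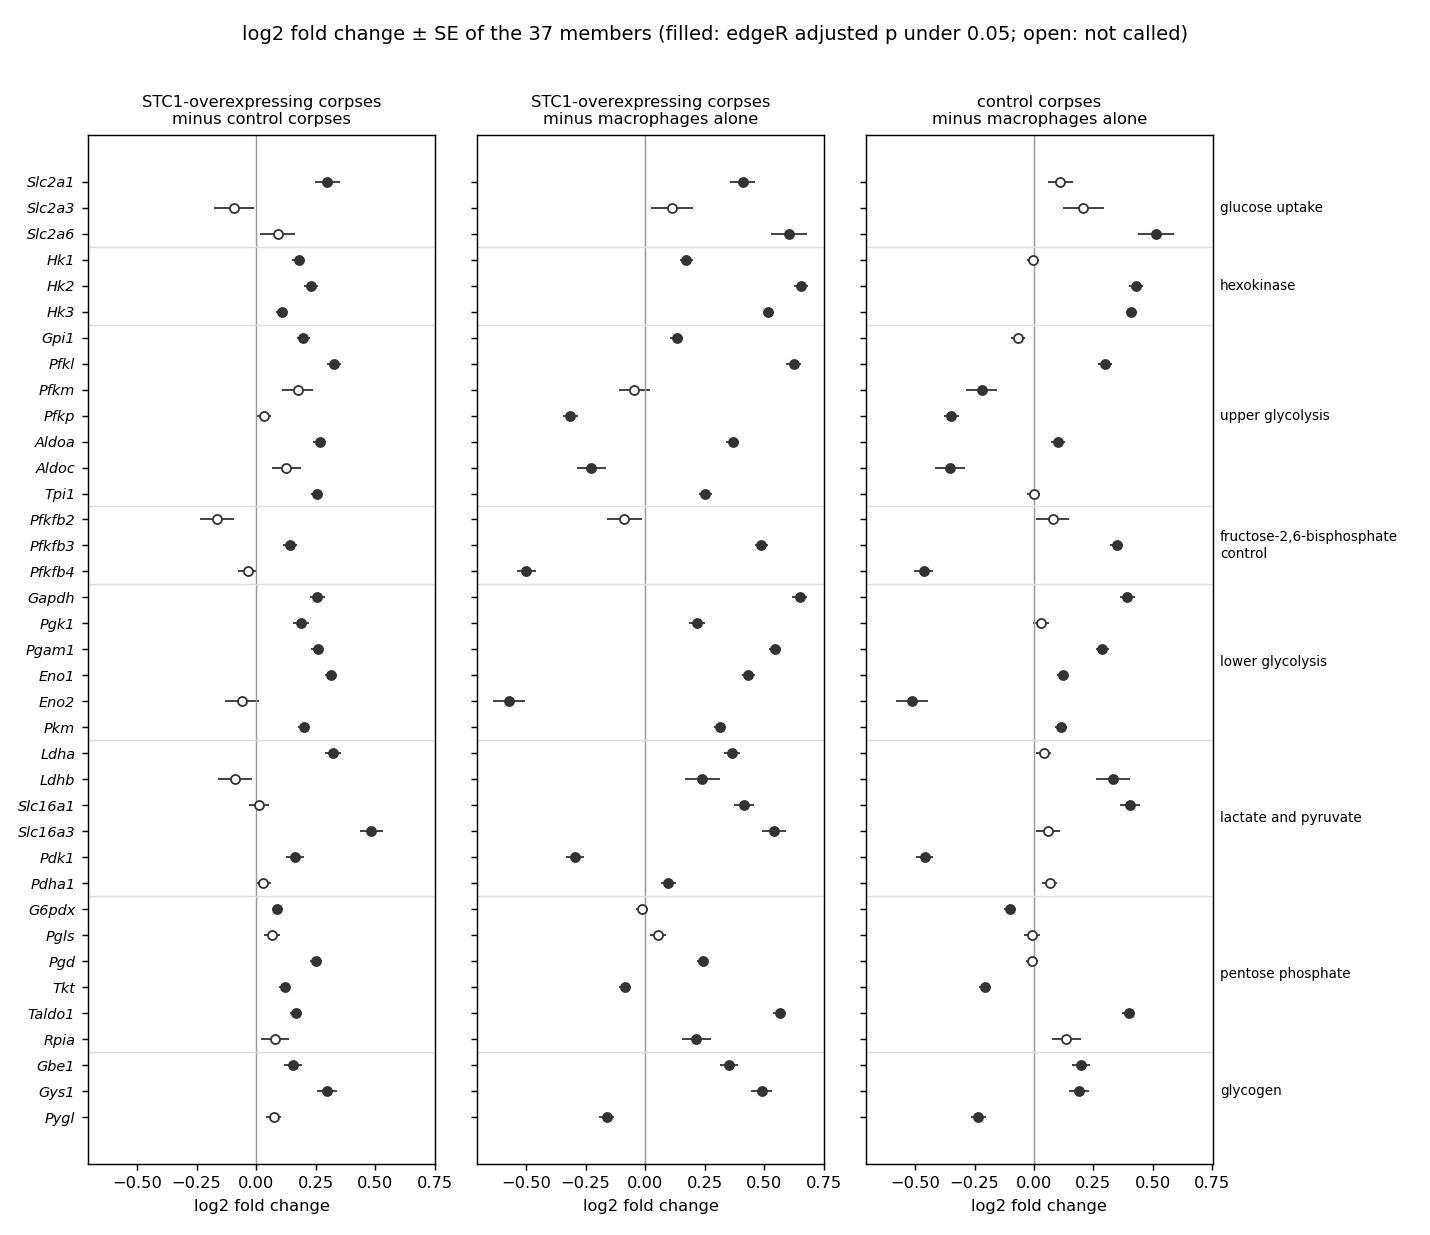
log2 fold change with its standard error (horizontal bars) of the 37 genes in the 3 comparisons, grouped by step of the pathway. Filled points are called at an edgeR adjusted p under 0.05, with 23 higher and 0 lower in the left panel, 25 higher and 7 lower in the middle and 15 higher and 9 lower at the right.

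At the first step, glucose uptake, 1 of 3 transporter genes was higher with STC1 corpses than with control corpses. Slc2a1 (ENSMUSG00000028645.11, chr4:119108711-119137983, plus strand) encodes GLUT1, the widespread glucose carrier of the plasma membrane. Its level was 129, 115, 126 and 127 CPM in replicates 1 to 4 with STC1 corpses, 107, 90.8, 104 and 102 CPM with control corpses and 86.0, 97.2, 95.9 and 94.4 CPM in macrophages alone. All 4 libraries with STC1 corpses lay above all 8 others, while control corpses and macrophages alone overlapped. The log2 fold change of STC1 corpses over control corpses was 0.30 ± 0.05 (SE; edgeR adjusted p = 0.00571), and over macrophages alone it was 0.41 ± 0.05 (edgeR adjusted p = 2.57e-05). Control corpses over macrophages alone gave 0.11 ± 0.05 (edgeR adjusted p = 0.124), which did not pass.

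Slc2a6, which encodes GLUT6, a hexose transporter of lysosomes, averaged 10.02 ± 0.786 CPM (mean ± SD, n = 4 in each group, as for the means below) with STC1 corpses, 9.41 ± 0.357 CPM with control corpses and 6.58 ± 0.547 CPM in macrophages alone. It was higher with either kind of corpse than in macrophages alone, by 0.60 ± 0.08 with STC1 corpses and 0.51 ± 0.08 with control corpses on the log2 scale (SE; edgeR adjusted p = 9.53e-08 and 1.78e-06), and the corpse groups overlapped. Slc2a3 (GLUT3, a high-affinity carrier) was not called in any comparison, with 6.21 ± 0.572 CPM, 6.64 ± 0.515 CPM and 5.73 ± 0.246 CPM in the same order of groups. Control corpses over macrophages alone gave 0.21 ± 0.09 (edgeR adjusted p = 0.0539), which passed in each of 5 fits without 1 library, namely replicate 1 of the control corpse group or any 1 of the STC1 corpse group (edgeR adjusted p = 0.0203 to 0.0483). Per kilobase of exon Slc2a1 held 35.4 CPM with STC1 corpses, where Slc2a6 held 3.12 CPM and Slc2a3 0.857 CPM.

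All 3 hexokinases, which trap glucose in the cell as glucose 6-phosphate, were higher with STC1 corpses than with control corpses. Hk2 (ENSMUSG00000000628.10, chr6:82725025-82774454, minus strand), the inducible form, had 150.2, 152.3, 158 and 163 CPM with STC1 corpses, 131, 134, 133 and 135 CPM with control corpses and 96.2, 101, 103 and 96.1 CPM in macrophages alone. The 3 groups did not overlap and formed 3 steps. Its log2 fold change was 0.23 ± 0.03 between the corpse groups (SE; edgeR adjusted p = 7.19e-06), 0.66 ± 0.03 for STC1 corpses over macrophages alone (edgeR adjusted p = 7.32e-18) and 0.43 ± 0.03 for control corpses over macrophages alone (edgeR adjusted p = 2.95e-13).

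Hk3 (ENSMUSG00000025877.14, chr13:55005985-55021385, minus strand), a hexokinase typical of myeloid cells, was the most abundant of them per length. It had 739, 773, 783 and 757 CPM with STC1 corpses, 696, 711, 704 and 718 CPM with control corpses and 521, 536, 536 and 538 CPM in macrophages alone. Again each group lay apart from the others, but the step between the corpse groups was small, with a log2 fold change of 0.11 ± 0.02 (SE; edgeR adjusted p = 0.00530), beside 0.52 and 0.41 for STC1 corpses and control corpses over macrophages alone. Hk1 (ENSMUSG00000037012.18, chr10:62268855-62379908, minus strand), a form that binds mitochondria, had 139, 136, 141 and 143 CPM with STC1 corpses, 123, 119.9, 124 and 127 CPM with control corpses and 122, 123, 123 and 127 CPM in macrophages alone. Here control corpses and macrophages alone overlapped and the libraries with STC1 corpses lay above both, at 0.18 ± 0.03 over control corpses on the log2 scale (SE; edgeR adjusted p = 7.08e-05). Hk3 made up 82.98% ± 0.495 of the summed CPM per kilobase of the 3 hexokinases with STC1 corpses, and Hk2 10.5% ± 0.351 (SD, n = 4).

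Of the 7 enzymes of upper glycolysis, 4 were higher with STC1 corpses than with control corpses. Pfkl (ENSMUSG00000020277.10, chr10:77986947-78010083, minus strand) encodes the liver-type phosphofructokinase, which commits sugar to glycolysis. Its level was 157, 148.99, 157 and 151.7 CPM with STC1 corpses, 125, 115, 127 and 123 CPM with control corpses and 95.6, 101, 102 and 100.2 CPM in macrophages alone. No libraries of different groups overlapped. The log2 fold change was 0.33 ± 0.03 between the corpse groups (SE; edgeR adjusted p = 3.02e-08), 0.62 ± 0.03 for STC1 corpses over macrophages alone and 0.30 ± 0.03 for control corpses over macrophages alone (edgeR adjusted p = 5.17e-17 and 1.76e-09).

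The platelet-type gene Pfkp did otherwise: it averaged 97.6 ± 4.10 CPM with STC1 corpses, 95.4 ± 3.77 CPM with control corpses and 121 ± 2.08 CPM in macrophages alone. It was lower with STC1 corpses and with control corpses than in macrophages alone, by log2 fold changes of -0.32 ± 0.03 and -0.35 ± 0.03 (SE; edgeR adjusted p = 8.78e-10 and 1.21e-10), and the corpse groups overlapped. The muscle-type gene Pfkm averaged 10.2 ± 0.473 CPM, 9.01 ± 0.109 CPM and 10.5 ± 0.694 CPM in the same order. Pfkm was lower with control corpses than in macrophages alone (-0.22 ± 0.07, edgeR adjusted p = 0.00731). Its corpse groups did not overlap either, at 0.17 ± 0.07 on the log2 scale, but the adjusted p of edgeR was 0.122.

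The makeup of phosphofructokinase transcripts differed between groups. Per kilobase of exon, Pfkl was 68.4% to 70.2% of the 3 genes in libraries with STC1 corpses, 64.6% to 65.8% with control corpses and 54.3% to 56.4% in macrophages alone. Pfkp was 21.3% to 22.3% with STC1 corpses, 25.0% to 25.6% with control corpses and 33.0% to 33.9% in macrophages alone. These shares are descriptions without a test. The order of Pfkl and Pfkp in macrophages alone depends on the length used. All annotated exons span 6675 bases for Pfkl and 13401 for Pfkp, and the longest protein-coding transcripts 3730 and 4145. Without a length, Pfkp was the larger there, at 121 CPM beside 99.6 CPM for Pfkl.

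Aldoa (ENSMUSG00000030695.16, chr7:126795234-126800751, minus strand), aldolase A, which splits fructose-1,6-bisphosphate, was with Pkm the most abundant gene of the list per kilobase of all annotated exons. Aldoa averaged 477 CPM per kilobase and Pkm 458 with STC1 corpses, 397 and 399 with control corpses, and 369.8 and 368 in macrophages alone. The order of the 2 depends on the length used, and without a length Pkm was the larger, at 2290.5 CPM beside 1389 CPM with STC1 corpses. Aldoa had 1402, 1326, 1401 and 1427 CPM with STC1 corpses, 1154, 1125, 1165 and 1175 CPM with control corpses and 1136, 1072, 1041 and 1058 CPM in macrophages alone. The lowest library with STC1 corpses lay above the highest of the others, while control corpses and macrophages alone overlapped by a little. The log2 fold change was 0.27 ± 0.03 over control corpses (SE; edgeR adjusted p = 1.72e-07) and 0.37 ± 0.03 over macrophages alone (edgeR adjusted p = 1.43e-12), and control corpses over macrophages alone gave 0.10 ± 0.03 (edgeR adjusted p = 0.00352).

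Gpi1, which interconverts glucose 6-phosphate and fructose 6-phosphate, averaged 396 ± 14.2 CPM with STC1 corpses, 345 ± 15.7 CPM with control corpses and 361 ± 3.49 CPM in macrophages alone. Tpi1, which interconverts the triose phosphates, averaged 459 ± 16.2 CPM, 385 ± 9.93 CPM and 385 ± 6.00 CPM in that order. Both were higher with STC1 corpses than with control corpses (log2 fold changes 0.20 ± 0.03 and 0.26 ± 0.03, SE; edgeR adjusted p = 6.97e-05 and 1.72e-07) and were not called between control corpses and macrophages alone. Without replicate 1 of the control corpse group, Gpi1 was called lower with control corpses than in macrophages alone (-0.08, edgeR adjusted p = 0.0439). Aldoc, the aldolase best known from brain, was low and went the other way against macrophages alone: it averaged 13.5 ± 1.15 CPM with STC1 corpses, 12.4 ± 0.612 CPM with control corpses and 15.8 ± 0.862 CPM in macrophages alone, lower in both corpse groups (edgeR adjusted p = 0.00332 with STC1 corpses and 2.13e-05 with control corpses).

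The bifunctional PFK-2 enzymes make and remove fructose-2,6-bisphosphate, the activator of phosphofructokinase, and 1 of 3 was higher with STC1 corpses than with control corpses. Pfkfb3 (ENSMUSG00000026773.19, chr2:11471433-11554077, minus strand), the isoform with strong kinase activity, had 103, 101, 104 and 106 CPM with STC1 corpses, 92.7, 92.7, 94.9 and 94.8 CPM with control corpses and 75.7, 74.6, 74.0 and 70.8 CPM in macrophages alone. The 3 groups did not overlap. The log2 fold change was 0.14 ± 0.03 between the corpse groups (SE; edgeR adjusted p = 0.00190), and 0.49 ± 0.03 and 0.35 ± 0.03 for STC1 corpses and control corpses over macrophages alone (edgeR adjusted p = 3.63e-15 and 1.38e-11).

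Pfkfb4 went the opposite way with corpses. It averaged 37.9 ± 0.856 CPM with STC1 corpses, 38.9 ± 2.44 CPM with control corpses and 53.5 ± 1.14 CPM in macrophages alone, and was lower with either kind of corpse, with log2 fold changes of -0.50 ± 0.04 for STC1 corpses and -0.46 ± 0.04 for control corpses (SE; edgeR adjusted p = 4.03e-12 and 1.95e-11). The corpse groups overlapped. Pfkfb2 was not called in any comparison, at 8.48 ± 0.429 CPM, 9.503 ± 0.574 CPM and 8.99 ± 0.562 CPM in the same order. Per kilobase of all annotated exons, Pfkfb3 was 60.5% of the 3 genes with STC1 corpses and 57.2% with control corpses. In macrophages alone it was 44.4%, where Pfkfb4 was 49.96%. Which of the 2 was the larger in macrophages alone depends on the length used. All annotated exons span 7561 bases for Pfkfb3 and 4875 for Pfkfb4, and the longest protein-coding transcripts 4801 and 3488. Without a length, Pfkfb3 was the larger there, at 73.8 CPM beside 53.5 CPM for Pfkfb4.

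**Figure D3:**
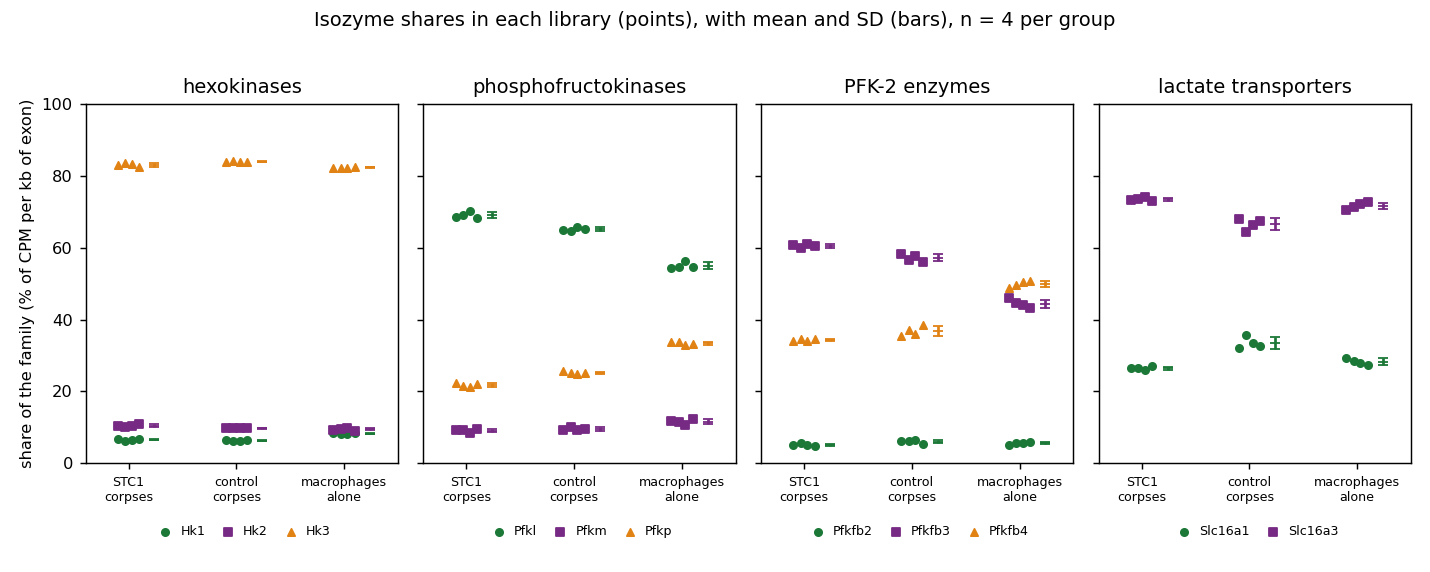
Share of each gene in its family (percent of the summed CPM per kilobase of exon, vertical axis) in each library, for hexokinases, phosphofructokinases, PFK-2 enzymes and lactate transporters in the 3 groups; bars are mean and SD, n = 4. On this measure Pfkfb3 lies above Pfkfb4 in both corpse groups and below it in macrophages alone, an order that depends on the exon length used. The Slc16a3 share is highest with STC1 corpses.

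Lower glycolysis, which yields ATP and ends in pyruvate, had 5 of 6 genes higher with STC1 corpses than with control corpses. Eno1 (ENSMUSG00000063524.13, chr4:150236721-150248879, plus strand), enolase, had 1361, 1287, 1311 and 1296 CPM with STC1 corpses, 1066, 1014, 1063 and 1086 CPM with control corpses and 994, 977, 955 and 963 CPM in macrophages alone. No libraries of different groups overlapped. Its log2 fold change was 0.31 ± 0.03 between the corpse groups (SE; edgeR adjusted p = 4.22e-09), 0.43 ± 0.03 for STC1 corpses over macrophages alone and 0.12 ± 0.03 for control corpses over macrophages alone (edgeR adjusted p = 4.49e-15 and 2.42e-04).

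Pgam1 (ENSMUSG00000011752.6, chr19:41911923-41918660, plus strand), phosphoglycerate mutase, had 487, 498, 513 and 524 CPM with STC1 corpses, 415, 410.4, 436 and 429 CPM with control corpses and 340.5, 346, 343 and 355 CPM in macrophages alone. It too formed 3 separate steps, 0.26 ± 0.03 apart on the log2 scale between the corpse groups (SE; edgeR adjusted p = 1.72e-07) and 0.29 ± 0.03 apart between control corpses and macrophages alone (edgeR adjusted p = 1.89e-10). Pkm (ENSMUSG00000032294.17, chr9:59656368-59679375, plus strand), pyruvate kinase of muscle and most proliferating cells, had 2327, 2207, 2322 and 2306 CPM with STC1 corpses, 2018, 1922, 2021 and 2011 CPM with control corpses and 1873, 1873, 1792 and 1831 CPM in macrophages alone. The libraries with STC1 corpses were the highest 4 of the 12, 0.20 ± 0.03 above control corpses on the log2 scale (SE; edgeR adjusted p = 7.12e-06).

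Gapdh, glyceraldehyde-3-phosphate dehydrogenase, averaged 173 ± 8.32 CPM with STC1 corpses, 144.9 ± 5.00 CPM with control corpses and 111 ± 1.70 CPM in macrophages alone. Its log2 fold changes were 0.26 ± 0.03 between the corpse groups, 0.65 ± 0.03 for STC1 corpses over macrophages alone and 0.39 ± 0.03 for control corpses over macrophages alone (SE; edgeR adjusted p = 2.95e-06, 4.82e-17 and 8.83e-12). Gapdh was thus not level across these groups. Pgk1, phosphoglycerate kinase, averaged 513 ± 30.2 CPM, 449.8 ± 12.9 CPM and 441 ± 12.2 CPM in that order, and was higher with STC1 corpses than with control corpses (0.19 ± 0.03, edgeR adjusted p = 0.00126). Eno2, the neuronal enolase, was low, at 8.24 ± 0.522 CPM with STC1 corpses, 8.57 ± 0.592 CPM with control corpses and 12.2 ± 0.519 CPM in macrophages alone, and was lower in both corpse groups than in macrophages alone (log2 fold changes -0.57 ± 0.07 and -0.51 ± 0.07, edgeR adjusted p = 3.86e-08 and 2.58e-07).

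The levels of several of these genes are uncertain because other genes carry near-identical sequence. Of the 75-base stretches of the longest protein-coding transcript, 80.3% were also found in transcripts of other genes for Gapdh (121 other genes), 67.5% for Pgk1, 65.4% for Eno1, 40.6% for Pgam1 and 19.6% for Pkm. Reads that match more than 1 place were not counted, so the level of such a gene is a part of its reads. The reads were 150 bases long and paired, so these percentages are not the share of reads left uncounted. Among the 27 listed genes with under 10% of such stretches, which include Slc16a3, Ldha, Pfkl, Slc2a1, Aldoa and Tpi1, 17 were higher with STC1 corpses than with control corpses and 0 lower. Among the 10 others, 6 were higher and 0 lower.

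The largest difference between the corpse groups among the 37 genes was in lactate export. Slc16a3 (ENSMUSG00000025161.16, chr11:120948480-120960868, plus strand) encodes MCT4, the main lactate exporter of glycolytic cells, and its promoter is shown above. It had 111, 101, 108 and 110.2 CPM with STC1 corpses, 82.6, 67.3, 77.4 and 79.3 CPM with control corpses and 71.6, 74.4, 73.1 and 75.6 CPM in macrophages alone. Libraries with STC1 corpses lay above all others, and those with control corpses lay on both sides of macrophages alone. The log2 fold change was 0.48 ± 0.05 over control corpses (SE; edgeR adjusted p = 4.33e-05), 0.54 ± 0.05 over macrophages alone (edgeR adjusted p = 2.30e-07) and 0.06 ± 0.05 for control corpses over macrophages alone (edgeR adjusted p = 0.407).

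Ldha (ENSMUSG00000063229.15, chr7:46841475-46855627, plus strand), the lactate dehydrogenase subunit that favours lactate formation, had 888, 828, 893 and 895 CPM with STC1 corpses, 742, 657, 706 and 695 CPM with control corpses and 699.9, 695, 664 and 663 CPM in macrophages alone. The pattern matched that of Slc16a3: STC1 corpses above, the other groups overlapping. Its log2 fold change was 0.32 ± 0.03 over control corpses (SE; edgeR adjusted p = 1.22e-06) and 0.36 ± 0.03 over macrophages alone (edgeR adjusted p = 1.64e-09), and 0.04 ± 0.03 for control corpses over macrophages alone (edgeR adjusted p = 0.350).

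Replicate 2 was the lowest library of its group for Slc2a1, Ldha and Slc16a3 with STC1 corpses and with control corpses alike. When replicate 2 with control corpses was left out, the log2 fold change of STC1 corpses over control corpses was 0.43 for Slc16a3, 0.25 for Slc2a1 and 0.29 for Ldha (edgeR adjusted p = 2.86e-09, 0.000408 and 1.73e-07). In the same fit, control corpses over macrophages alone gave 0.13 for Slc16a3, 0.17 for Slc2a1 and 0.08 for Ldha (edgeR adjusted p = 0.00401, 0.00156 and 0.0279), so that all 3 were then called higher. For Slc2a1 the call against macrophages alone was also made without replicate 2 of the STC1 corpse group (edgeR adjusted p = 0.0418) and with no filter on low counts (edgeR adjusted p = 0.00219).

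The counterparts Ldhb and Slc16a1 were not called between the corpse groups. Ldhb averaged 12.6 ± 0.578 CPM with STC1 corpses, 13.5 ± 1.49 CPM with control corpses and 10.7 ± 0.981 CPM in macrophages alone. Slc16a1, which encodes MCT1, averaged 32.2 ± 1.80 CPM, 32.0 ± 0.705 CPM and 24.2 ± 0.680 CPM in that order. Both were higher with either kind of corpse than in macrophages alone, by 0.24 and 0.41 with STC1 corpses and 0.33 and 0.40 with control corpses on the log2 scale (edgeR adjusted p = 0.00841 or less). Slc16a3 was 73.5% of the pair Slc16a3 and Slc16a1 per kilobase with STC1 corpses, where control corpses gave 66.5% and macrophages alone 71.7%.

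Pdk1 (ENSMUSG00000006494.11, chr2:71873224-71903858, plus strand), a kinase that shuts off pyruvate dehydrogenase and so keeps pyruvate from the mitochondrial cycle, was called in opposite directions. It had 99.7, 95.9, 92.3 and 92.4 CPM with STC1 corpses, 89.3, 77.8, 89.9 and 82.2 CPM with control corpses and 115, 117, 116 and 119 CPM in macrophages alone. The libraries of macrophages alone were the highest, those with STC1 corpses came next and those with control corpses were the lowest. The log2 fold change was 0.16 ± 0.04 for STC1 corpses over control corpses (SE; edgeR adjusted p = 0.00917), but -0.30 ± 0.04 for STC1 corpses over macrophages alone (edgeR adjusted p = 2.49e-07) and -0.46 ± 0.04 for control corpses over macrophages alone (edgeR adjusted p = 1.14e-10). Pdha1, a subunit of pyruvate dehydrogenase, averaged 52.5 ± 0.546 CPM, 51.4 ± 1.12 CPM and 49.1 ± 0.914 CPM in the groups STC1 corpses, control corpses and macrophages alone, and was called only for STC1 corpses over macrophages alone (0.10 ± 0.03, edgeR adjusted p = 0.0142).

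**Figure D4:**
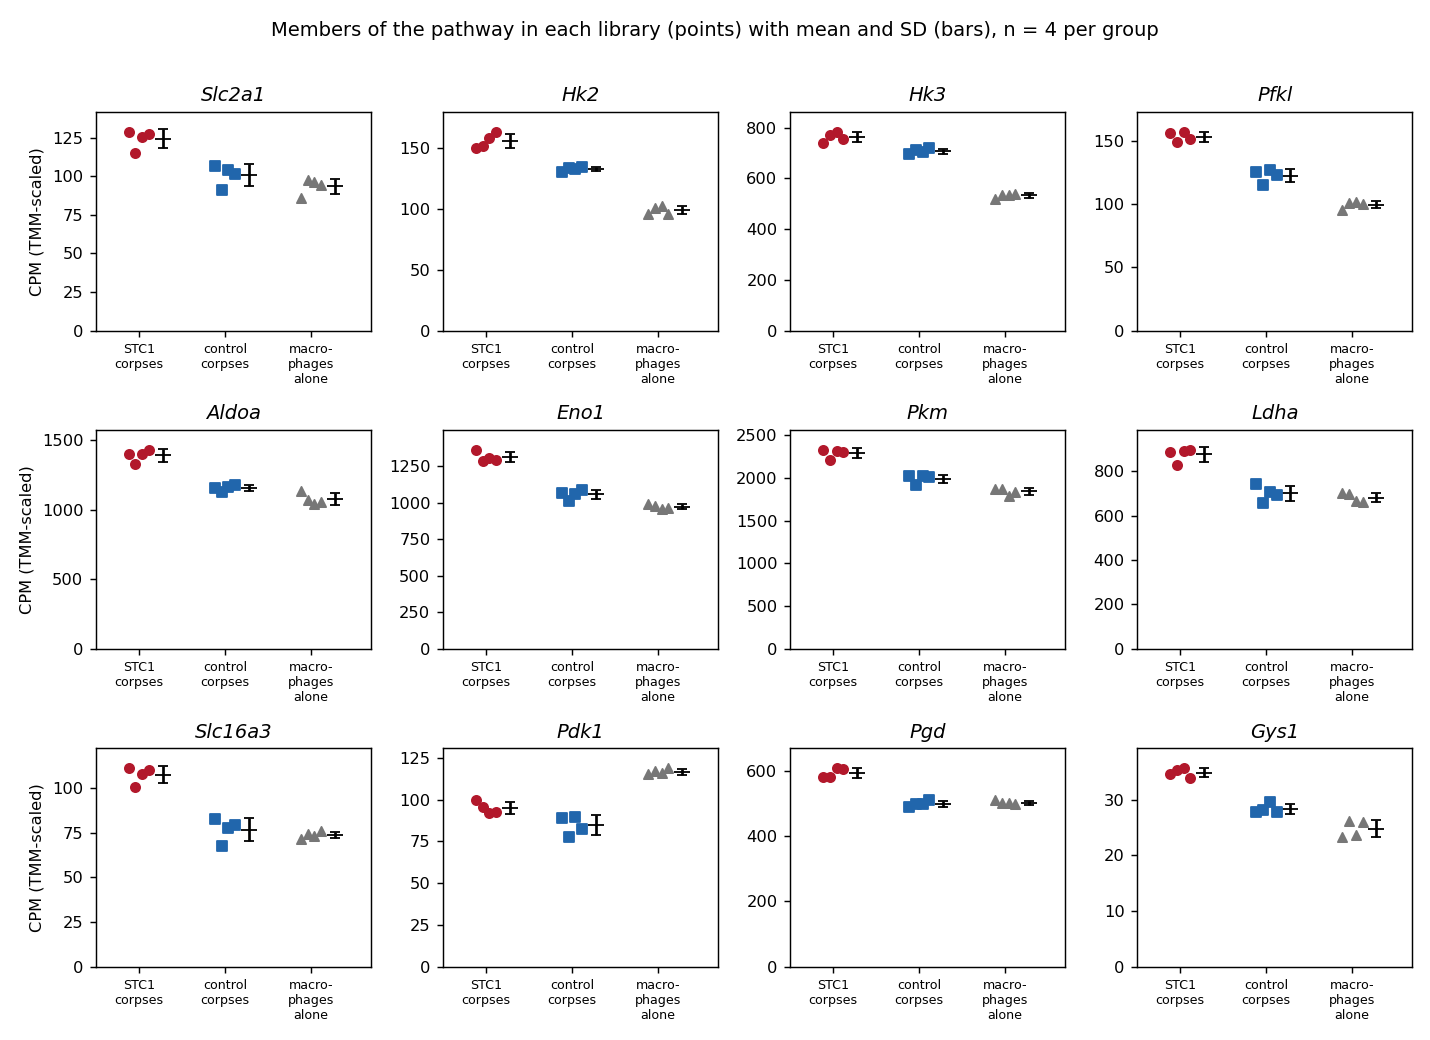
Level of 12 genes of the list (CPM, vertical axes from 0) in each of the 4 libraries per group, with mean and SD. Slc16a3 sits at 101 to 111 CPM with STC1 corpses, 67.3 to 82.6 CPM with control corpses and 71.6 to 75.6 CPM in macrophages alone, while Pdk1 is highest in macrophages alone.

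In the pentose phosphate pathway 4 of 6 genes were higher with STC1 corpses than with control corpses. Pgd (ENSMUSG00000028961.15, chr4:149149991-149166771, minus strand), 6-phosphogluconate dehydrogenase, which makes NADPH, had 581, 580.4, 607 and 604 CPM with STC1 corpses, 488, 498, 499 and 509 CPM with control corpses and 509, 500.0, 500.0 and 497 CPM in macrophages alone. Control corpses and macrophages alone overlapped and STC1 corpses lay above them, by 0.25 ± 0.02 over control corpses on the log2 scale (SE; edgeR adjusted p = 4.91e-08). Taldo1 (ENSMUSG00000025503.5, chr7:141392199-141402968, plus strand), transaldolase of the non-oxidative branch, had 556, 584, 591 and 588 CPM with STC1 corpses, 496, 523, 519 and 528 CPM with control corpses and 388, 383, 389 and 408 CPM in macrophages alone. It was the most abundant gene of the branch per length, and its main step was between control corpses and macrophages alone (0.40 ± 0.03, SE; edgeR adjusted p = 1.43e-13), with 0.17 ± 0.03 between the corpse groups (edgeR adjusted p = 2.04e-04).

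G6pdx (ENSMUSG00000031400.10, chrX:74409483-74429194, minus strand), glucose-6-phosphate dehydrogenase, the entry enzyme, had 199, 194, 202 and 201 CPM with STC1 corpses, 185, 183, 190.5 and 189 CPM with control corpses and 205, 199.7, 195 and 203 CPM in macrophages alone. Levels with STC1 corpses and in macrophages alone overlapped, and those with control corpses were lower than both. The difference between the corpse groups was 0.09 ± 0.03 on the log2 scale (SE; edgeR adjusted p = 0.0301). This call held in 8 of the 12 fits that each left out 1 library. Of these 12 fits, 4 left out a library of macrophages alone, a group outside this comparison, and the call held in those. It was lost without replicate 3 or 4 of the STC1 corpse group (edgeR adjusted p = 0.119 and 0.0647) and without replicate 1 or 2 of the control corpse group (edgeR adjusted p = 0.0770 and 0.0845).

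Tkt (ENSMUSG00000021957.7, chr14:30548359-30574720, plus strand), transketolase, had 329.6, 320.2, 330.0 and 339 CPM with STC1 corpses, 302, 299, 307 and 306 CPM with control corpses and 351, 352, 349 and 348 CPM in macrophages alone. Macrophages alone were highest, STC1 corpses next and control corpses lowest, as for Pdk1, with log2 fold changes of 0.12 ± 0.02 between the corpse groups, -0.09 ± 0.02 for STC1 corpses over macrophages alone and -0.21 ± 0.02 for control corpses over macrophages alone (SE; edgeR adjusted p = 0.00177, 0.00315 and 1.32e-08). The call of STC1 corpses over macrophages alone was lost without replicate 2 of the STC1 corpse group (edgeR adjusted p = 0.0505). Pgls, 6-phosphogluconolactonase, was not called in any comparison, at 72.3 ± 2.37 CPM, 69.1 ± 1.94 CPM and 69.6 ± 2.73 CPM in the groups STC1 corpses, control corpses and macrophages alone. Without replicate 1 of the STC1 corpse group it was called for STC1 corpses over macrophages alone (0.09, edgeR adjusted p = 0.0428). Rpia, ribose-5-phosphate isomerase, averaged 12.2 ± 0.396 CPM, 11.6 ± 0.179 CPM and 10.5 ± 0.689 CPM in the same order and was called only for STC1 corpses over macrophages alone (0.22 ± 0.06, edgeR adjusted p = 0.00447).

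Of the 3 glycogen genes, the 2 that build glycogen were higher with STC1 corpses than with control corpses. Gys1 (ENSMUSG00000003865.16, chr7:45434844-45456619, plus strand), glycogen synthase, had 34.5, 35.2, 35.6 and 33.9 CPM with STC1 corpses, 27.8, 28.1, 29.5 and 27.7 CPM with control corpses and 23.3, 26.2, 23.7 and 25.9 CPM in macrophages alone. The 3 groups did not overlap, with log2 fold changes of 0.30 ± 0.04 between the corpse groups and 0.19 ± 0.04 for control corpses over macrophages alone (SE; edgeR adjusted p = 2.95e-05 and 5.48e-04). Gbe1 (ENSMUSG00000022707.16, chr16:70313949-70569716, plus strand), the branching enzyme, had 44.8, 42.5, 43.1 and 41.3 CPM with STC1 corpses, 39.1, 36.8, 40.0 and 38.2 CPM with control corpses and 35.6, 32.5, 33.3 and 33.3 CPM in macrophages alone, again in 3 steps, 0.16 ± 0.04 between the corpse groups (SE; edgeR adjusted p = 0.0130).

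Pygl (ENSMUSG00000021069.17, chr12:70190811-70231488, minus strand), the liver-type phosphorylase that breaks glycogen down, had 81.8, 87.2, 82.5 and 83.5 CPM with STC1 corpses, 74.6, 82.9, 79.3 and 81.6 CPM with control corpses and 92.3, 92.7, 94.999 and 94.3 CPM in macrophages alone. The corpse groups overlapped and both lay below macrophages alone, with log2 fold changes of -0.16 ± 0.03 for STC1 corpses and -0.23 ± 0.03 for control corpses (SE; edgeR adjusted p = 9.99e-05 and 3.39e-07).

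The difference between the corpse groups was also read within parts of the experiment. All 23 called genes had log2 fold changes above 0 in replicates 1 and 2 alone (0.09 to 0.50; 8 of the 37 called higher, where 0.164% of all tested genes were) and in replicates 3 and 4 alone (0.09 to 0.48; 21 called higher, where 7.83% of all tested genes were). Those 23 genes were called from the same libraries, so their shared sign in both parts was largely set by that choice. With any 1 of the 12 libraries left out, 22 of the 23 calls held, all but that of G6pdx. In a test against a fold of 1.2, 0 of the 37 genes were called higher between the corpse groups, where 0.0122% of all tested genes were; at an unadjusted p under 0.05, edgeR gave 4 of the 37 and 88 of all 16406. For STC1 corpses over macrophages alone 16 were then higher and 2 lower, where 5.50% and 7.41% of all tested genes were, and for control corpses over macrophages alone 7 were higher and 4 lower, where 4.49% and 5.80% were (edgeR adjusted p under 0.05).

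**Figure D5:**
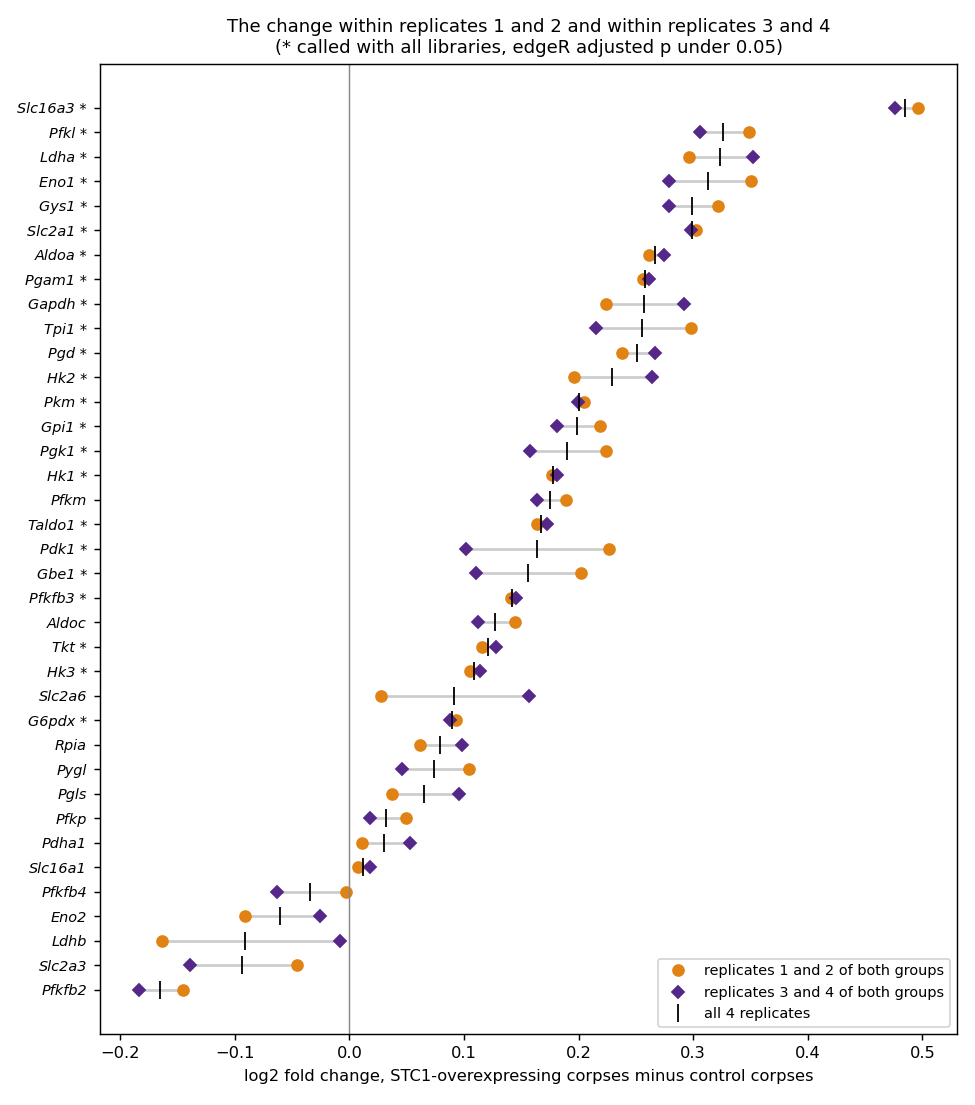
log2 fold change of STC1 corpses over control corpses (horizontal axis) for each of the 37 genes, from replicates 1 and 2 of both groups (circles), replicates 3 and 4 (diamonds) and all 4 (ticks). For the 23 called genes, marked with an asterisk, both part values lie above 0, which their choice from the same libraries largely sets.

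Of 70 other genes of these pathways, 51 passed the filter on low counts. With STC1 corpses as against control corpses, 5 of the 51 were higher and 1 was lower, with a median log2 fold change of -0.01. Those were 9.80% and 1.96%, where 3.33% and 2.12% of all tested genes were called. Among those higher were Eno1b (0.30 ± 0.05), a near copy of Eno1 whose reads cannot be told apart with certainty, Ppp1r3b (0.19 ± 0.04), which targets a phosphatase to glycogen, Gaa (0.19 ± 0.04), the lysosomal enzyme that degrades glycogen, and Bsg (0.15 ± 0.03), the chaperone of MCT1 and MCT4, all on the log2 scale with SE (edgeR adjusted p = 0.00471 or less). The lower one was Phka2, a regulatory subunit of phosphorylase kinase (-0.12 ± 0.03, edgeR adjusted p = 0.00581). Bsg averaged 186 ± 5.58 CPM with STC1 corpses, 168 ± 3.24 CPM with control corpses and 145.02 ± 4.12 CPM in macrophages alone.

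Genes of the hypoxia response were looked at beside the list, since many glycolytic genes are among its known targets. Their lists, here and in the next paragraph, were chosen with earlier results of these data known, so the counts are descriptions only. The part of the hypoxia factors in the changes of the 37 genes was not tested. Hif1a, the oxygen-regulated subunit, averaged 69.6 ± 2.08 CPM with STC1 corpses, 69.8 ± 1.07 CPM with control corpses and 62.2 ± 1.68 CPM in macrophages alone, with a log2 fold change of -0.00 ± 0.03 between the corpse groups (SE; edgeR adjusted p = 0.970). Of 8 tested genes for hypoxia factors and their hydroxylases, 3 were higher with STC1 corpses than with control corpses and 0 lower. Of all tested genes 3.33% were higher and 2.12% lower in that comparison. Egln3, a prolyl hydroxylase that the factors are known to induce, had 5.46, 6.13, 5.60 and 6.00 CPM with STC1 corpses, 2.94, 2.597, 2.47 and 2.64 CPM with control corpses and 2.42, 2.21, 1.90 and 3.02 CPM in macrophages alone. It differed by 1.12 ± 0.11 on the log2 scale between the corpse groups (SE; edgeR adjusted p = 1.71e-07), more than any of the 37 genes. Epas1 (HIF2A) and the hydroxylase Egln1 differed by 0.32 ± 0.07 and 0.24 ± 0.03 (SE; edgeR adjusted p = 0.00520 and 1.90e-05). Against macrophages alone, 4 of the 8 were higher and 0 lower with STC1 corpses, where 21.4% and 22.4% of all tested genes were. With control corpses 2 were higher and 3 lower, where 19.7% and 20.5% were. The largest log2 fold change among the 8 was 1.40 with STC1 corpses and 1.08 with control corpses.

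Of 14 tested hypoxia targets outside glucose metabolism, 9 were higher with STC1 corpses than with control corpses and 0 lower, where 3.33% and 2.12% of all tested genes were. Their median log2 fold change was 0.20, beside -0.01 over all tested genes. Bnip3, a mitophagy receptor, averaged 7.86 ± 0.625 CPM with STC1 corpses, 5.66 ± 0.602 CPM with control corpses and 6.18 ± 0.282 CPM in macrophages alone (0.47 ± 0.09 between the corpse groups, SE; edgeR adjusted p = 8.56e-04). P4ha2 and P4ha1, subunits of collagen prolyl hydroxylase, differed by 0.35 ± 0.06 and 0.22 ± 0.03 (edgeR adjusted p = 4.31e-04 and 7.19e-06). The cytokine gene Mif differed by 0.31 ± 0.04 and the stress gene Ndrg1 by 0.26 ± 0.05 (edgeR adjusted p = 4.36e-05 and 0.00638). Against macrophages alone the same list had calls in both directions. With STC1 corpses 7 were higher and 2 lower, where 21.4% and 22.4% of all tested genes were. With control corpses 4 were higher and 5 lower, where 19.7% and 20.5% of all tested genes were.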

How the data were processed

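The authors deposited 1 table of unnormalised read counts for each library. HISAT2, HTSeq and DESeq2, with the builds mm10 and GRCm38, are named per the submitters' processing notes; their versions, the annotation release and whether strand was used are not given in the sources used here. The libraries were paired-end TruSeq mRNA libraries, per the labels. Lines without a gene did not enter sizes or tests and made up 10.6% to 14.7% (no feature), 5.53% to 6.62% (ambiguous), 5.17% to 5.85% (low quality), 10.8% to 17.8% (not aligned) and 5.74% to 7.03% (not unique) of all reads. Overlapping genes, present over part of the exons of 16 of the 37 genes, cannot be told apart.

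Groups and replicate numbers came from the sample titles. Symbols were matched by identifier (54723 of 55604; 881 had none); where Aldoa had 2 identifiers, the one with more counts was used. Coordinates and exon lengths are those of GENCODE M21 on GRCm38, and promoters those of RefSeq on GRCm38.p6. The fit used edgeR 4.0.16 under R 4.3.3 (genes kept by filterByExpr with minimum count 10 and minimum total 15; TMM; robust quasi-likelihood over the 12 libraries, 1 mean for each group; two-sided tests; Benjamini-Hochberg over 16406 genes; threshold 0.05). The biological coefficient of variation was 4.53%, so small changes pass. SE is the log2 fold change over the square root of F. CPM per kilobase of exon was used to compare genes. The length is that of all annotated exons of a gene together, so orders between genes can depend on it.

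Alternatives were RLE and upper-quartile scaling, no filter, DESeq2 1.42.0, the compared groups alone, the replicate number as a block, a test against 1.2-fold, each library left out, and replicates 1 and 2 or 3 and 4 alone. The steps were tested on simulated data. Values per library are given for up to 2 called genes per step with the largest log2 fold change between the corpse groups, the most abundant gene per length of each step and genes called in opposite directions, and up to 5 called genes per comparison of at least 2 CPM from the other lists. Other listed genes are given as means. Some genes that the rule admits are not reported here. The genes and lists were chosen with earlier results of these data known. Libraries of 1 group differed by more than sampling noise, so none was counted as a duplicate.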

Additional observations from a re-analysis of the deposited data

Results flagged for a closer look

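In 8 of 111 sets of 4 libraries (37 genes in 3 groups), 1 library lay far from the other 3 by Dixon's test at the 95% level; chance gives about 1 in 20. With STC1 corpses, Slc2a6 had 8.86 CPM in replicate 1, against 10.3 to 10.5 CPM in the others. Tpi1 had 483.5 CPM in replicate 1 of the same group, against 449 to 455 CPM. Ldha had 828 CPM in replicate 2 there, against 888 to 895 CPM, still above the highest value with control corpses. With control corpses, replicate 2 was low for Tpi1, at 370 CPM against 389 to 390.5 CPM, and for Pkm, at 1922 CPM against 2011 to 2021 CPM. In macrophages alone, replicate 1 was low for Slc2a6, at 5.77 CPM against 6.76 to 6.93 CPM, and for Hk3, at 520.6 CPM against 536 to 538 CPM, and replicate 4 was high for Hk1, at 127 CPM against 122 to 123 CPM.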

How the results depend on the processing

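The counts of 23 higher and 0 lower (STC1 corpses over control corpses), 25 and 7 (STC1 corpses over macrophages alone) and 15 and 9 (control corpses over macrophages alone) among the 37 genes stayed within 1.5 times under RLE and upper-quartile scaling, no filter, DESeq2 and the compared groups alone. With any 1 library left out they ran from 22 to 23 and 0 to 0, from 25 to 26 and 6 to 7, and from 15 to 18 and 9 to 10. Against a fold of 1.2 they were 0 higher between the corpse groups (0.0122% of all tested genes), 16 and 2 for STC1 corpses over macrophages alone (5.50% and 7.41% of all), and 7 and 4 for control corpses over macrophages alone (4.49% and 5.80%). From replicates 1 and 2 alone, 8 were higher between the corpse groups; there are then 2 libraries per group. No fold change of a listed gene that was called changed sign in any of these. Under scaling, filter, tool, block and compared groups alone, 659 of 666 single-gene results were on the same side of the threshold; G6pdx lost its call between the corpse groups with upper-quartile scaling, no filter and the compared groups alone (edgeR adjusted p = 0.0643, 0.0675 and 0.0556). Slc2a3 gained a call for control corpses over macrophages alone with RLE scaling and the compared groups alone, as did Slc2a1 with no filter (edgeR adjusted p = 0.00219) and Gpi1, in the lower direction, with the block. The cause was not tested. The replicate number as a block gave 23 and 0, 25 and 7, and 15 and 10; deviations of libraries with the same number correlated at -0.0434 to 0.0912 (0 of 12 pairs over 0.1) and those with different numbers at -0.0915 to 0.0957, so the numbers were not taken to pair the samples. That 7 of 12 libraries correlated best with their own number is a hint from the data, not the design. Counts limit the 12 genes below 50 CPM most, of which 2 were called between the corpse groups; the lowest averaged 6.19 CPM.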

Other observations

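Against macrophages alone, 1 tested pathway gene outside the list was higher by a larger fold than any of the 37, with STC1 corpses and with control corpses alike. That gene, Gaa (lysosomal acid glucosidase), averaged 206 ± 10.7 CPM with STC1 corpses, 181 ± 8.52 CPM with control corpses and 105 ± 2.86 CPM in macrophages alone (SD, n = 4), a log2 fold change of 0.98 ± 0.04 and 0.79 ± 0.04 for STC1 corpses and control corpses over macrophages alone (SE; edgeR adjusted p = 3.53e-16 and 2.42e-14). Tigar, a fructose-2,6-bisphosphatase, was higher by 0.48 and 0.41 (edgeR adjusted p = 9.67e-08 and 1.21e-06), and Phka2 was lower (-0.47 and -0.34; edgeR adjusted p = 4.46e-15 and 6.04e-12). Of the 51 tested genes of that list, 17 were higher and 10 lower with STC1 corpses, and 14 higher and 7 lower with control corpses, than in macrophages alone. Those were 33.3% and 19.6% with STC1 corpses, where 21.4% and 22.4% of all tested genes were called. With control corpses they were 27.5% and 13.7%, where 19.7% and 20.5% of all tested genes were.

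Txnip, which the glucose-sensing factors ChREBP and MondoA are known to induce and which restrains glucose uptake, averaged 141 ± 2.06 CPM with STC1 corpses, 134 ± 5.98 CPM with control corpses and 208 ± 6.35 CPM in macrophages alone. It was lower with either kind of corpse (-0.56 ± 0.03 and -0.63 ± 0.03 on the log2 scale, SE; edgeR adjusted p = 2.62e-16 and 1.89e-17), and the difference between the corpse groups did not pass (0.07 ± 0.03, edgeR adjusted p = 0.171). Its relative Arrdc4 was higher with STC1 corpses than with control corpses (0.25 ± 0.05, edgeR adjusted p = 0.00524), the 1 call among the 5 tested genes of that list between the corpse groups. Against macrophages alone all 5 were called with both kinds of corpse, Myc and Mlx higher and Txnip, Arrdc4 and Mlxip lower. Of all tested genes 21.4% were called higher and 22.4% lower with STC1 corpses, and 19.7% and 20.5% with control corpses.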
